A study of Oryza sativa Japonica Group with 15 samples.

Results

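Of the 57381 probe sets on the Affymetrix rice genome array, 68 detected transcripts that were more abundant in the upper than in the lower side of rice shoot bases, 6 h after seedlings were laid horizontally. Each had a 6 h lower flank mean at least 0.8 log2 below the upper flank mean, an upper flank mean of at least 2.5, and all 3 upper flank arrays above all 3 lower flank arrays. Signals are log2 values centred on the median of each array, so that 0 is the median probe set. Of 77 probe sets that met these limits, 3 that had risen by 2 or more log2 in both flanks since 0 h and 6 of genes already described by name (CPD2, OsPIP2;5, EXP1, AMYC2, IAA18 and CAD8C) were left out. The 68 were thus chosen by their 6 h flank signals, which are given below as a description.

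The plants were 21-day-old japonica rice seedlings (Oryza sativa), kept in the dark before they were turned. The labels give no light during the treatment and the study's methods a dim green light. RNA came from whole shoot bases at 0 h, before the plants were turned, and from cut upper and lower flanks, taken at 0.5 h or at 6 h, with 3 arrays in each of these 5 groups. Each array carried RNA of a pool of plants, labelled as a biological replicate, and p-values measure the spread between these pools. The 0 h samples were whole and the later ones cut, and time since the dark period began moved with time after turning. Cutting and this time therefore cannot be told apart from turning in any comparison with 0 h, and unturned plants at 6 h were not analysed here. In RNA of a whole flank, fewer cells of a type and less RNA per cell cannot be told apart.

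In shoot gravitropism, starch-filled plastids settle towards the ground in cells that sense gravity, and auxin is then redistributed towards the lower flank. The lower flank elongates faster and the shoot bends upwards. Many auxin-induced genes are therefore known from the lower flank. Transcripts of the upper flank belong to the side that grows less.

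The uncentred median signal ranged from 22.81 to 29.6 over the 5 arrays of replicate 1 and from 17.16 to 23.05 over the other 10. The uncentred signal of the control probe set AFFX-DapX-5_at ranged from 106.57 to 208.98 over the former and from 16.5 to 26.28 over the latter. Of 16 rice control probe sets, which show RNA or labelling quality, that were above the array median on all 6 h arrays, 15 had a lower mean in the upper than in the lower flank. All upper were below all lower flank arrays for 7 of them, and the others overlapped. The GAPDH control ranged from 3.55 to 4.46 in the upper and from 4.05 to 5.26 in the lower flank at its 5′ probe set, from 6.35 to 6.78 and from 6.80 to 7.09 in the middle, and from 7.91 to 8.05 and from 7.92 to 8.19 at its 3′ probe set. The part of these controls in the results was not tested. Markers of photosynthetic tissue, secondary walls, phloem, dividing cells, meristems and seed storage were read as lists, with 3, 5, 1, 5, 4 and 1 genes tested, and limma called 0 of them between the flanks at 6 h. At an unadjusted p under 0.05 there were 2 of photosynthesis, 1 of secondary walls and 1 of seed storage. Of all tested probe sets, 1.75% were called and 11.4% had an unadjusted p under 0.05 in this comparison. The log2 of the summed signal of the 5 genes of dividing cells ranged from 5.78 to 6.01 in the upper and from 5.20 to 5.94 in the lower flank, and that of the single phloem gene from 6.52 to 6.68 and from 6.14 to 6.47.

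The flank difference of the 68 at 6 h ran from 0.80 to 3.11 log2 in favour of the upper flank, with a median of 1.0, which is 2.0-fold. It was at least 2-fold in 34 and at least 4-fold in 2. By the rule the flanks did not overlap, and the gap between the lowest upper and the highest lower array had a median of 0.52. The difference was widest among the arrays of replicate 1, with a median over the 68 of −1.34 (lower minus upper), against −1.05 and −0.83 in replicates 2 and 3. The lower flank array of replicate 1 was the lowest of its group for 54 of the 68, or 79.4%, where it was so for 55.9% of all tested probe sets. The lower flank array of replicate 3 was the highest of its group for 44, or 64.7%, where it was so for 45.9% of all tested probe sets. Over the 68, the median SD was 0.35 in the lower and 0.21 in the upper flank (n = 3 each). The rule drew on these arrays and set a floor on the upper flank mean only, so nothing is read from this difference. In a limma fit over all 28620 tested probe sets, 0.283% were called lower in the 6 h lower flank than in the upper, and 32 of the 68 were among them. Since the same contrast chose the 68, nothing is read from that count. It was 55 with the flank pairs as a block, and 13 were called whichever of the 15 arrays was left out.

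**Figure D1:**
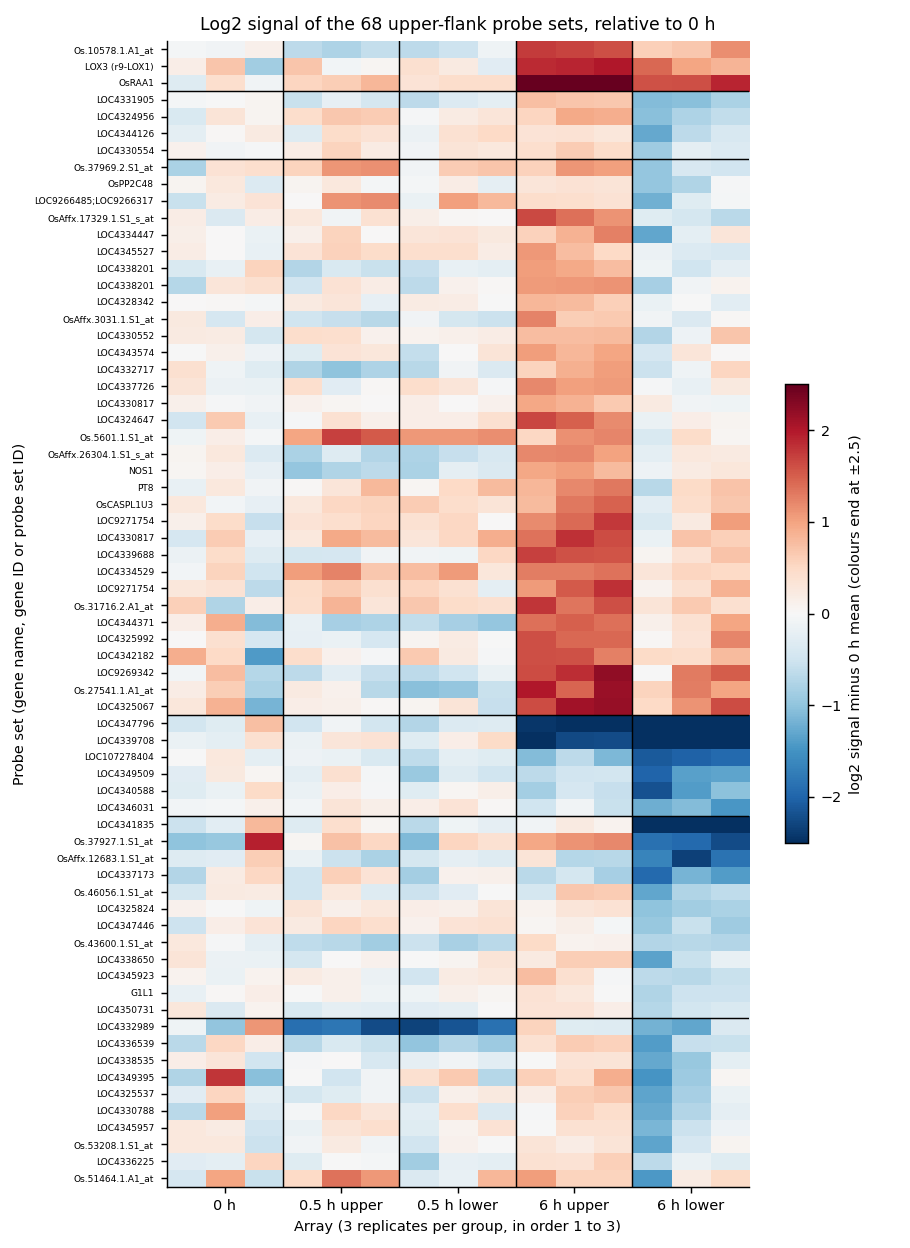
Log2 signal of each of the 68 probe sets (vertical axis) on each of the 15 arrays (horizontal axis), less the mean of the probe set at 0 h; black lines separate the 5 groups and the 6 ways in which the 6 h arrays lay against the 0 h arrays. From the top down these hold 3, 4, 33, 6, 12 and 10 probe sets, and the 33 have red upper flank columns beside pale lower flank columns at 6 h.

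Annotation gave a single gene for 53 of the 68 probe sets, several for 1 and none for 14, so that 50 distinct genes were represented and 7 of the probe sets carried a gene name. A match by probe set ID found 0 of the 68 in the transcript tables of the study. Whether that match missed entries was not tested, so nothing is read from it. The study's text names a lipoxygenase 1 gene as higher in the upper flank, matched here by symbol to r9-LOX1, 1 of the 68. Whether the probe set of r9-LOX1 detects that same gene was not tested beyond the symbol. The array's tables hold no description of the other genes, which are given by their gene ID with no statement of function. The genes lay on 11 of the chromosomes, with 8 on chromosome 1, 7 each on chromosomes 2 and 5 and at most 6 on any other. LOC4330552 and LOC4330554 on chromosome 2 had 1 protein-coding gene between them.

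Of the named genes, OsRAA1 encodes a small protein linked to root architecture in rice and related to the flowering-promoting factor FPF1 of Arabidopsis. Its log2 signals were 1.21, 1.93 and 1.43 at 0 h, then 2.05, 2.14 and 2.35 in the 0.5 h upper and 1.87, 1.96 and 1.96 in the 0.5 h lower flank. The 6 h signals were 4.12, 4.24 and 4.43 in the upper and 3.11, 3.13 and 3.42 in the lower flank. The 6 h signals of both sides stood clear above 0 h and were highest in the upper flank. The mean of both flanks at 6 h was 4.65-fold above 0 h (log2 difference 2.22, standard error 0.15, limma adjusted p = 1.03e-06) and 3.22-fold above that at 0.5 h (adjusted p = 3.45e-07).

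LOX3, also called r9-LOX1, encodes a 9-lipoxygenase, an enzyme that adds oxygen to polyunsaturated fatty acids at the start of oxylipin synthesis. Its signals were 3.83, 4.36 and 2.79 at 0 h, 5.53, 5.56 and 5.67 in the 6 h upper flank and 5.10, 4.64 and 4.51 in the 6 h lower flank. Both flanks lay above 0 h on every array, and replicate 1 had the highest lower flank value, so that its flanks differed least. The flank mean at 6 h was 2.84-fold above 0 h (log2 difference 1.51, standard error 0.29, limma adjusted p = 0.00233). At 0.5 h its signals, 4.36, 3.58 and 3.71 in the upper and 4.06, 3.89 and 3.37 in the lower flank, overlapped with each other and with 0 h.

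PT8 (OsPht1;8), a high-affinity phosphate transporter of the PHT1 family, read 5.32, 5.68 and 5.79 in the 6 h upper flank against 3.79, 4.96 and 5.19 in the lower. Its 0 h signals were 4.30, 4.74 and 4.40, below every upper flank array and within the range of the lower flank. In the lower flank, replicate 1 was well below the others. A second probe set of the gene, which can bind related transcripts, had means of 5.85 and 4.98 in the upper and lower flanks, and its arrays overlapped. The flank mean of PT8 at 6 h did not pass limma's test against 0 h (log2 difference 0.64, standard error 0.29, adjusted p = 0.124).

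OsCASPL1U3, of the membrane protein family named after the Casparian strip proteins of Arabidopsis, read 3.31, 2.98 and 2.84 at 0 h, 3.83, 4.37 and 4.52 in the 6 h upper flank and 2.79, 3.48 and 3.72 in the lower. The upper flank was above 0 h on all arrays and the lower flank overlapped with it. The flank mean at 6 h was 1.67-fold above 0 h (limma adjusted p = 0.0177), a call lost without 0 h replicate 2 or 3 and with no filter or only the arrays of the comparison, over a range of 0.00282 to 0.0881.

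NOS1, for which the tables used here give a name but no role, was below 0 h at 0.5 h and above it at 6 h in the upper flank. Its signals were 2.42, 2.55 and 2.17 at 0 h, 1.41, 1.62 and 1.72 in the 0.5 h upper flank and 1.59, 2.16 and 2.01 in the 0.5 h lower flank. The 6 h signals were 3.34, 3.43 and 3.16 in the upper and 2.25, 2.59 and 2.65 in the lower flank. This held on all upper flank arrays, while in the lower flank the 6 h arrays overlapped with 0 h. The log2 difference from 0 h at 0.5 h was −0.80 in the upper flank (standard error 0.17, limma adjusted p = 0.042) and −0.46 in the lower (adjusted p = 0.199), and whether these differ is given by the flank difference at 0.5 h, 0.34 with an adjusted p of 0.992. From 0.5 h to 6 h the flank mean rose 2.22-fold (adjusted p = 8.04e-06), and at 6 h it was 1.44-fold above 0 h (adjusted p = 0.0202, 0.00178 to 0.11 over the alternatives).

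OsPP2C48, a type 2C protein phosphatase, and G1L1, of the ALOG family of plant nuclear proteins, had 0 h signals near those of the upper flank. OsPP2C48 read 4.27, 4.47 and 3.86 at 0 h, 4.50, 4.55 and 4.53 in the 6 h upper flank and 3.24, 3.45 and 4.18 in the 6 h lower flank. G1L1 read 4.99, 5.21 and 5.36 at 0 h, 5.54, 5.46 and 5.17 in the upper and 4.42, 4.66 and 4.66 in the lower flank. For G1L1 all lower flank arrays lay below 0 h and the upper flank overlapped with it. For OsPP2C48 all upper flank arrays lay above 0 h, and the lower flank of replicate 3 was within the 0 h range. The flank mean at 6 h passed the limma test against 0 h for neither, at adjusted p of 0.687 and 0.255. A second probe set of OsPP2C48 had 6 h means of 1.02 and 0.88 in the upper and lower flanks, and its arrays overlapped. Another, too dim to be tested, had means of −3.41 in the upper and −3.13 in the lower flank.

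**Figure D2:**
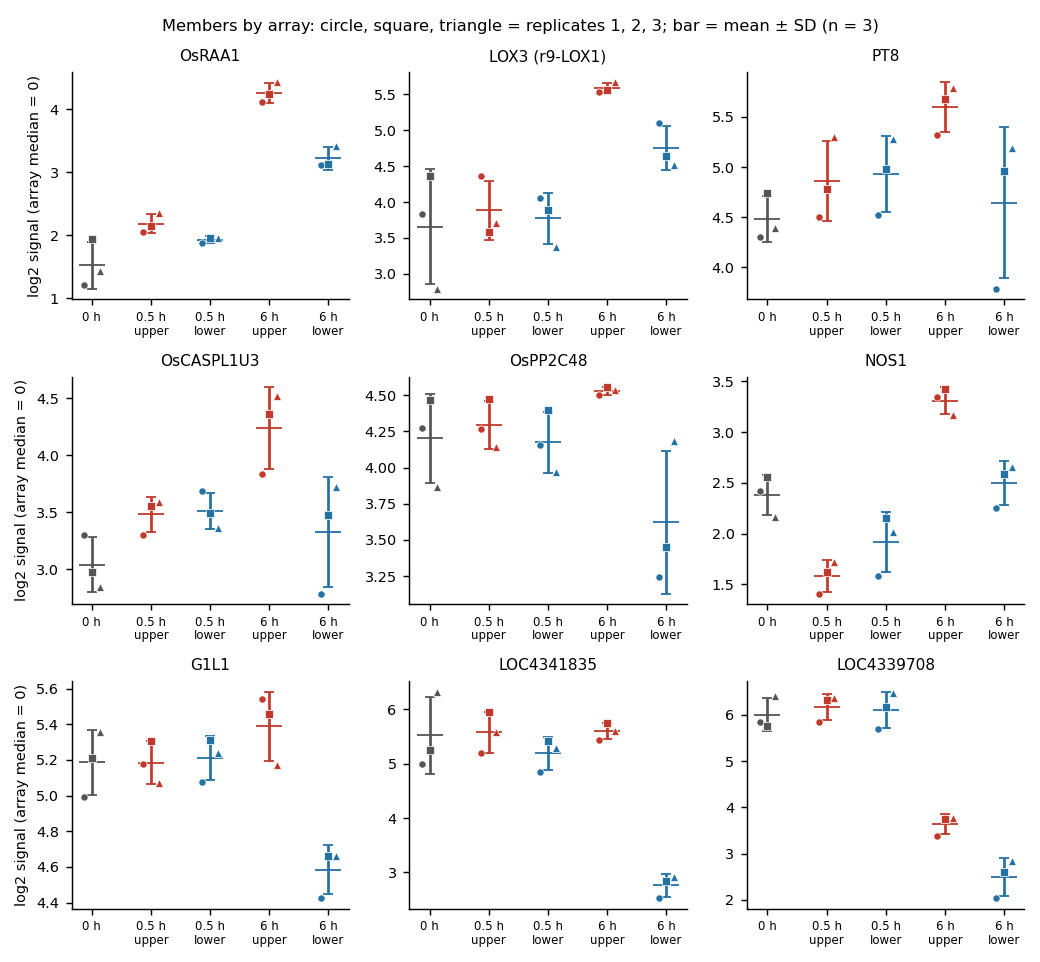
Log2 signal (vertical axis, array median at 0) in each group (horizontal axis) for the 7 named genes and LOC4341835 and LOC4339708; symbols are the replicates and bars are mean ± SD of 3 arrays, with a separate vertical scale per gene. OsRAA1 and LOX3 lie above 0 h in both flanks at 6 h, G1L1 and LOC4341835 lie below it in the lower flank, and LOC4339708 lies below it in both.

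The largest difference with no gene assigned was that of Os.37927.1.S1_at, at 2.69, 2.85 and 2.93 in the upper and −0.15, −0.22 and −0.50 in the lower flank at 6 h. Its lower flank signals lay below the median of the array, a range of dim and imprecise signals, and at 0 h it read 0.73, 0.78 and 3.66, so that the 0 h arrays spanned most of the range between the flanks. LOC4341835 was next, with 5.44, 5.74 and 5.60 in the upper and 2.53, 2.84 and 2.92 in the lower flank. At 0 h it read 4.99, 5.26 and 6.33 and at 0.5 h between 4.84 and 5.95, so that only the 6 h lower flank stood apart from the other 12 arrays. The low 6 h lower flank is the value that placed it among the 68.

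LOC4331905 read 3.85, 3.89 and 3.97 at 0 h, 4.64, 4.59 and 4.58 in the 6 h upper flank and 2.83, 2.85 and 3.10 in the 6 h lower flank. The 0 h arrays lay between the flanks with no overlap on either side. LOC4324956, LOC4344126 and LOC4330554 had the same arrangement, so that it held for 4 of the 68 and for 0.0524% of all tested probe sets. LOC4324956 read 2.87, 3.59 and 3.32 at 0 h, 3.79, 4.21 and 4.16 in the upper and 2.22, 2.48 and 2.64 in the lower flank, and a second probe set of the same transcript cluster, Os.37969.2.S1_at, differed by −1.51 between the flanks. A split of the flanks around 0 h is in part fixed by choosing probe sets with a wide flank difference.

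Among the other members with the largest differences, LOC4324647 read 5.63, 5.46 and 5.15 in the 6 h upper and 3.80, 4.13 and 4.03 in the 6 h lower flank, with 3.49, 4.61 and 3.78 at 0 h. LOC4339688 read 3.79, 3.66 and 3.64 in the upper and 2.15, 2.44 and 2.78 in the lower flank, with 1.93, 2.53 and 1.75 at 0 h. LOC4334447 read 3.42, 3.70 and 4.10 in the upper and 1.54, 2.59 and 3.14 in the lower flank, with 3.0, 2.86 and 2.67 at 0 h. In each of these the upper flank was above every 0 h array and the lower flank overlapped with 0 h. LOC4336539 read 4.13, 4.39 and 4.33 in the upper and 2.36, 3.17 and 3.20 in the lower flank, with 3.08, 4.26 and 3.91 at 0 h. LOC4325537 read 4.10, 4.52 and 4.57 in the upper and 2.59, 3.08 and 3.73 in the lower flank, with 3.63, 4.44 and 3.66 at 0 h. LOC4349395 read 3.07, 2.89 and 3.38 in the upper and 1.01, 1.56 and 2.52 in the lower flank, with 1.72, 4.27 and 1.43 at 0 h. In these the 0 h arrays overlapped with both flanks, and for LOC4349395 a single high 0 h array spanned them. The lower flank array of replicate 1 was the lowest of its group in each of these genes.

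Several genes, LOC4338201, LOC4330817 and LOC9271754, were represented by more than 1 of the 68. LOC4338201 had upper flank signals of 5.31, 5.32 and 5.37 and lower flank signals of 3.41, 4.16 and 4.33 on one probe set, and 5.09, 4.99 and 4.81 against 3.93, 3.55 and 3.82 on the other. A further probe set of this gene, too dim in the upper flank to be included, differed by −1.64. LOC4330817 differed by −1.22 and −0.82 on probe sets with 6 h upper flank means of 2.66 and 6.74, and LOC9271754 by −1.16 and −1.02. Of the 50 genes, 11 had further probe sets outside the 68, 15 in all, of which 8 were bright enough to be tested. All 8 were lower in the lower flank at 6 h, by a median of 0.38 log2, and 3 of them by 0.8 or more. Of the 7 dim ones, 3 were lower and 4 higher in the lower flank. These probe sets share the RNA and, in part, the transcript with the 68 and are not independent of them.

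Set against 0 h, the 6 h upper flank had a median difference of 0.78 over the 68 and the 6 h lower flank of −0.44. The upper flank mean was above 0 h for 59 and the lower flank mean below it for 45. The 0 h mean lay between the flank means for 36, below both for 23 and above both for 9, against 28.3% and 51.3% of all tested probe sets below and above both. On single arrays, the upper flank was above 0 h while the lower overlapped with it for 33 of the 68, or 48.5%, against 7.47% of all tested probe sets. The reverse arrangement, an upper flank overlapping with 0 h and a lower flank below it, held for 12, against 6.57%. Both flanks overlapped with 0 h for 10 and lay below it for 6, against 53.2% and 16.1% of all probe sets. Both lay above it for 3, OsRAA1, LOX3 and Os.10578.1.A1_at, against 6.52%. The required gap between the flanks favours arrangements in which a single flank departs from 0 h, and the floor on the upper flank mean and the exclusion of strong rises in both flanks also bear on these counts. They are therefore a description, and nothing is read from their distance to the shares over all probe sets.

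**Figure D3:**
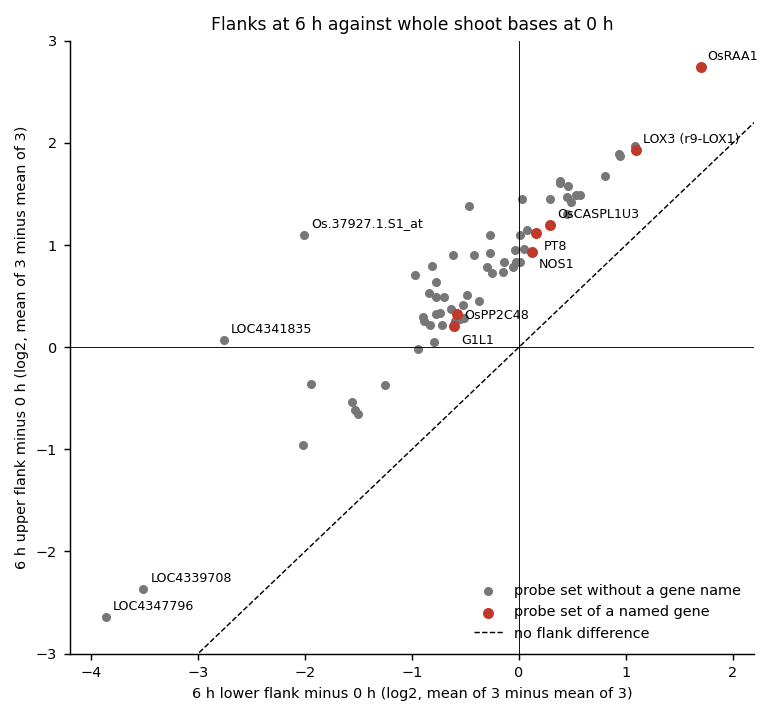
For each of the 68 probe sets, the log2 difference from 0 h of the 6 h lower flank (horizontal axis) and of the 6 h upper flank (vertical axis), each from means of 3 arrays; red points are named genes and the dashed line marks equal flanks. All points lie above the line by choice, and they run from LOC4347796, low in both flanks, to OsRAA1, high in both.

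Within the group of 33, LOC4325067 read 5.05, 5.62 and 3.61 at 0 h, 6.40, 6.86 and 6.94 in the 6 h upper flank and 5.26, 5.88 and 6.39 in the lower. Its flank mean was 2.88-fold above 0 h (log2 difference 1.53, limma adjusted p = 0.00895), and the log2 difference was 0.95 (adjusted p = 0.045, the highest over the alternatives, where the lowest was 0.00275) without 0 h replicate 3, which was its lowest 0 h array. LOC9269342 read 0.36 to 0.84 over the 6 flank arrays at 0.5 h, then 2.64, 2.85 and 3.21 in the upper and 1.0, 2.30 and 2.52 in the lower flank at 6 h. The flanks at 6 h stood clear of those at 0.5 h, and the rise was 3.68-fold (adjusted p = 1.34e-04). Os.27541.1.A1_at, of the same group, rose 3.71-fold between these times, and Os.10578.1.A1_at, of the 3 with both flanks above 0 h, rose 3.47-fold, both with no gene assigned (adjusted p = 5.09e-05 and 1.57e-07).

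The group of 6 with both flanks below 0 h held the largest declines. LOC4347796 read 5.67, 5.81 and 6.88 at 0 h, 3.69, 3.56 and 3.19 in the 6 h upper flank and 2.13, 2.25 and 2.40 in the lower. LOC4339708 read 5.85, 5.76 and 6.41 at 0 h, 3.38, 3.75 and 3.77 in the upper and 2.04, 2.60 and 2.84 in the lower flank. For each the 0.5 h signals, of 5.38 to 6.04 and 5.70 to 6.48, were in or near the 0 h range, and the 6 h flanks lay far below it. The flank means at 6 h were 9.52-fold and 7.69-fold below 0 h (limma adjusted p = 1.62e-06 and 2.50e-06). LOC107278404 was 2.80-fold below 0 h (adjusted p = 1.45e-05), with 2.82, 3.24 and 2.79 in the upper and 1.81, 1.89 and 1.96 in the lower flank against 3.66 to 4.17 at 0 h. These transcripts were thus placed among the 68 by a higher residual signal in the upper flank and not by a rise there.

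By limma, the mean of both flanks at 6 h differed from 0 h for 29 of the 68 (42.6%), 19 higher and 10 lower, while 27.0% of all tested probe sets were called, 8.55% higher and 18.4% lower. The 29 became 17 without 0 h replicate 3, 9 higher and 8 lower, and 19 with no filter, 11 higher and 8 lower. Against the flanks at 0.5 h, 35 of the 68 (51.5%) were called at 6 h, 22 higher and 13 lower, where 43.2% of all probe sets were called, 18.9% higher and 24.3% lower. The comparisons share the 6 h arrays and are not independent of each other. The mean of both flanks is not the measure that chose the 68, but it holds the same 6 h arrays, and the floor on the upper flank mean and the exclusion of rises touch it.

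At 0.5 h, limma called none (0) of the 68 between the flanks, and 0.00699% of all tested probe sets. The lowest adjusted p among the 68 was 0.992, and 2 had an unadjusted p under 0.05 (2.05% of all tested probe sets were so and lower in the lower flank), LOC4349509 (log2 difference −0.61) and LOC4324956 (−0.42), both lower in the lower flank. Of the 68, 42 (61.8%) had a lower mean in the lower flank, against 66.5% of all tested probe sets, and the median difference was −0.09 against −0.08. The 0.5 h flanks overlapped for 62. All upper arrays were above all lower arrays for 4 of the 68, against 7.12% of all probe sets, namely LOC4324956, LOC4336539, OsRAA1 and LOC4349509, and the opposite held for LOC4325992 and LOC4332717, an arrangement of 2.98% of all probe sets. LOC4349509 read 3.70, 4.35 and 3.89 in the upper and 3.02, 3.63 and 3.44 in the lower flank at the earlier time, and 3.29, 3.47 and 3.48 against 1.93, 2.59 and 2.63 at 6 h, with the same side high at each time.

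**Figure D4:**
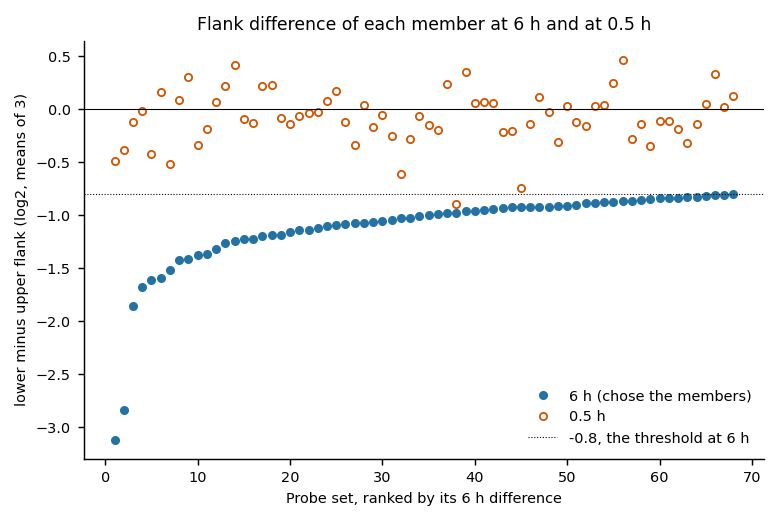
Lower minus upper flank log2 difference (vertical axis, means of 3 arrays) of the 68 probe sets at 6 h (filled) and at 0.5 h (open), ranked by the 6 h difference (horizontal axis). The 6 h points lie at or below −0.80 by choice, and the 0.5 h points scatter around 0, from −0.89 to 0.47.

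Each flank at 0.5 h was also set against 0 h, in comparisons that share the 0 h arrays. In the upper flank 4 of the 68 were called, 1 higher and 3 lower, against 1.68% of all tested probe sets (0.489% higher and 1.19% lower). In the lower flank 3 were called, 1 higher and 2 lower, against 1.63% (0.325% higher and 1.31% lower). LOC4332989 read 3.09, 2.21 and 4.30 at 0 h, fell to 1.32, 1.4 and 0.97 in the 0.5 h upper and 0.88, 1.04 and 1.34 in the 0.5 h lower flank. The 6 h signals were 3.75, 2.90 and 2.89 in the upper and 2.02, 1.91 and 2.83 in the lower flank. Both flanks were thus below 0 h at 0.5 h and the upper flank was back in the 0 h range at 6 h. The early differences were −1.97 and −2.11 log2 (limma adjusted p = 0.0437 and 0.0344). Os.43600.1.S1_at had early differences of −0.73 and −0.67 (adjusted p = 0.0362 and 0.0472). Its 6 h upper flank, at 4.68, 4.29 and 4.31, was also back in or near the 0 h range of 3.96 to 4.47, but its 6 h lower flank, at 3.47, 3.52 and 3.48, stayed below every 0 h array.

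Os.5601.1.S1_at moved the other way. It read 2.99, 3.26 and 3.06 at 0 h, 4.09, 4.82 and 4.64 in the 0.5 h upper and 4.19, 4.18 and 4.26 in the 0.5 h lower flank. The 6 h signals were 3.62, 4.25 and 4.32 in the upper and 2.73, 3.56 and 3.16 in the lower flank. Both flanks rose early with no overlap with 0 h, and at 6 h only the upper flank was still clear of it. The early rises were 2.66-fold and 2.15-fold (limma adjusted p = 0.0156 and 0.0421). These calls stood near the threshold. The upper flank count was 0 without 0.5 h upper flank replicate 2 or 3, and the lower flank count was 0 without any single 0.5 h lower flank array. Both were 0 with no filter.

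Lists of gene families or pathways of the named genes other than OsRAA1 and NOS1 were read at 6 h, leaving out the genes of the 68. They were read to see whether other genes of each list differed between the flanks. The lists of JAZ and TIFY genes and of starch breakdown, which hold no gene of the 68, were read as well. Of 12 other tested genes of jasmonate and oxylipin synthesis, limma called 0 in either direction and 2 had an unadjusted p under 0.05, both lower in the lower flank. The median of these 12 was −0.06 against −0.08 over all tested probe sets. Of all tested probe sets, 1.75% were called between the flanks at 6 h and 11.4% had an unadjusted p under 0.05, in either direction. Of 5 other PHT1 phosphate transporters, 0 were called and 1 had an unadjusted p under 0.05, lower in the lower flank. Of 21 other CASP-like genes and 14 JAZ and TIFY genes, 0 were called, with an unadjusted p under 0.05 for 1 of each. The CASP-like gene, OsCASPL2C1, was higher in the lower flank (log2 difference 0.74) and JAZ3 was lower there (−0.28). JAZ proteins restrain jasmonate responses, and the 14 also include GATA17, GATA18 and GATA20, which are not JAZ genes by name. Of 52 other type 2C phosphatases, 1 was called, higher in the lower flank, and 9 had an unadjusted p under 0.05, 5 higher and 4 lower there. Of 3 other G1-like genes, 0 were called and 0 had an unadjusted p under 0.05. Among 5 tested genes of starch breakdown, the 1 called was the amylase gene AMYC2, one of the genes left out of the 68, and 2 had an unadjusted p under 0.05. At 0.5 h, 0 genes of the whole lists were called, and 1 each of the jasmonate, PHT1 and CASP-like lists had an unadjusted p under 0.05. Of all tested probe sets, 3.2% had such a p at 0.5 h. The lists hold only genes with a symbol.

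Some of the other genes that the study placed in the upper flank were read beside the 68, matched by symbol. Others that it placed there were not read, among them OsGA2ox7, OsGA2ox9, a cytochrome P450 of jasmonate synthesis and an α-glucosidase. AMYC2 had a 6 h flank difference of −1.41 (limma adjusted p = 0.00694). AMY3D, another α-amylase gene, had means of 3.75 and 2.81 in the upper and lower flanks (log2 difference −0.94, adjusted p = 0.343) and PPDK2, a pyruvate orthophosphate dikinase, 2.67 and 1.98 (−0.69, adjusted p = 0.503). The isocitrate lyase gene OsICL, of the glyoxylate cycle, had means of 2.54 and 1.07 and was too dim over all arrays to be tested. OPR2, an oxophytodienoate reductase, had a mean of 2.72 in the upper and 3.05 in the lower flank (0.33, adjusted p = 0.564). The study reports its oxophytodienoate reductase transcript as higher in the upper flank, on the arrays and by quantitative PCR. Whether the probe set read here detects that same gene was not tested beyond the symbol. Nothing is therefore read from the opposite direction.

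At the edge of the selection, NOS1, G1L1 and LOC4350731 had flank differences of −0.8122, −0.8067 and −0.8014, while LOC4351742, LOC4324116 and LOC9266321, at −0.7995, −0.7972 and −0.7963, fell outside. For the upper flank mean, OsAffx.12683.1.S1_at, LOC4330788 and LOC4330817 were just inside at 2.62, 2.65 and 2.66. OsAffx.19702.1.S1_at, LOC4344437 and Os.19134.1.S1_at were just outside at 2.48, 2.49 and 2.49. The same limits applied the other way at 6 h, with the lower flank above the upper, held 347 probe sets. Applied at 0.5 h they held 7 with a higher upper and 15 with a higher lower flank.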

How the data were processed

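The authors hybridised biotin-labelled RNA of 15 pools to the Affymetrix rice array and deposited linear signal intensities, 1 for each array and probe set, calculated with the array maker's software (MAS5, per the submitters' processing notes). The scaling target and the genome build of the annotation are not given in the sources used here. These deposited intensities were taken to log2 and each array was centred on its median. The 50% of probe sets with the highest mean were kept, and after leaving out controls 28620, with all 68, were tested with limma 3.58.1 (R 4.3.3), fitting a mean for each group over 15 arrays (residual degrees of freedom 10, prior 2.676). A call is a Benjamini-Hochberg adjusted p under 0.05 over all tested probe sets. The fit was also run on simulated data with independent noise on each array. That simulation lacks the pairing of samples described below, so nothing about the present data is read from it. The number of arrays limits the precision.

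The members, the gene lists and the tests were chosen with earlier results of these data known. The symbol patterns behind the lists were written with the annotation in view. Gene names came from the array's platform annotation and from RefSeq assembly ASM3414082v1, used for names and neighbours only. Named are the 12 largest differences with a gene, the 6 largest changes called in each comparison and genes with a symbol. Some of the genes the study placed in the upper flank, those at the thresholds, and related probe sets are named too.

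Samples of the same replicate number were checked for pairing by the correlation of their deviations from the group means, at 0.224 to 0.50 for the flanks at 0.5 h, 0.262 to 0.477 for those at 6 h and 0.155 to 0.417 for 0 h and the lower flank at 0.5 h. All exceed 0.1, so these numbers pair the samples. Printed p-values come from the unblocked model, with the block as an alternative. The lowest values of 0.064, −0.283 and −0.30 for 0 h against the 0.5 h upper, 6 h upper and 6 h lower flanks do not exceed it. Alternatives were no centring, quantile normalization, log2(signal + 16), no filter, only the arrays of a comparison, a replicate block and leaving out each array.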

Additional observations from a re-analysis of the deposited data

Results flagged for a closer look

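In 2 of the 68 probe sets the flanks were apart in opposite directions at the 2 times, with every array of each flank on its side. The 6 h order was set by the rule. At 0.5 h all lower were above all upper flank arrays for 2.98% of all tested probe sets, so nothing is read from this count. At 0.5 h LOC4325992 was 0.35 log2 higher in the lower flank, with 3.53, 3.65 and 3.44 against 3.25, 3.29 and 3.03 in the upper flank, and lower at 6 h, with 3.49, 3.80 and 4.67 against 5.08, 4.89 and 4.89. At 0.5 h LOC4332717 was 0.47 log2 higher in the lower flank, with 2.10, 2.69 and 2.43 against 2.04, 1.77 and 2.01, and lower at 6 h, with 2.25, 2.68 and 3.32 against 3.33, 3.67 and 3.83. The difference between the times was not tested, since the 6 h values chose the probe sets, and neither passed limma at 0.5 h.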

How the results depend on the processing

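No change of direction was found among the called gene values. Of 150 such values under other settings, 123 kept their call and 27 lost it, and with 1 array left out 306 of 375 kept it and 69 lost it. For OsRAA1, LOX3, LOC4347796 and LOC4339708, the calls of the 6 h flank mean against 0 h and against 0.5 h held in every setting run. These are not calls between the flanks. The NOS1 call of the 6 h flank mean against 0 h was lost without centring, with no filter and without 0 h replicate 3. For the upper flank at 0.5 h against 0 h, the 4 called became 1 without centring, 0 with no filter, 0 with only the arrays of the comparison and 9 with the replicate block, and 0 to 5 with 1 array left out. For the lower flank the 3 called became 1, 0, 0 and 5 with the replicate block, and 0 to 3 with 1 array left out. For the 6 h flank mean against 0 h, the 29 became 19 with no filter, and 17 (without 0 h replicate 3) to 31 with 1 array left out. For 6 h against 0.5 h the count was 31 to 39. The flank difference at 0.5 h gave 0 calls in every setting, the replicate block included. The replicate block moved no other count by over 1.5 times except the 6 h flank calls, 55 for 32, that only describe the selection. Without centring the median of the 68 became 0.13 in place of −0.09 for the flanks at 0.5 h, and −0.09 in place of 0.13 for 6 h against 0.5 h. The causes were not tested.

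The membership itself depended on the arrays. The limits held 82 probe sets without centring (67 of the 68 among them), 62 after quantile normalization (54) and 50 on log2(signal + 16) (44). Without replicate 1 of the 6 h upper flank the limits held 160 (61 of the 68), and without replicate 3 of the 6 h lower flank 343 (64). With fewer arrays to keep apart, the limits are easier to meet. With a difference of at least 1 they held 34 and with at least 0.6 they held 194. Without replicate 1 of the 6 h lower flank they held 50, with 42 of the 68 among them. All 68 stayed lower in the lower flank under each scaling. Of the 68, 27 kept all limits under each scaling and with each 6 h array left out, and OsRAA1 was the only named gene among them.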
